A study of Mus musculus with 17 samples.

Results

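The mRNAs of 8 Toll-like receptors (Tlr1, Tlr2, Tlr3, Tlr4, Tlr6, Tlr7, Tlr8 and Tlr9) and of the lipopolysaccharide co-receptors Cd14 and Ly96 were followed across mouse macrophage libraries. These 10 genes, chosen by symbol, were 10 of the 24453 gene models in the deposited table, and all of them were measured in all 13 polyA RNA-seq libraries. Of the 13 libraries, 8 came from immortalised bone marrow-derived macrophages (iBMDMs), C57Bl/6EiJ cells carrying retroviral BRAF(V600E) and Myc. These cells received vehicle and were labelled Scramble (the control, zsGreen in the titles), Atf3KO, JunKO or JunDKO, with 2 libraries per group. The edited cells were pools that expressed Cas9 and carried lentiviral guide pairs, sorted on a fluorescent marker. The other 5 libraries came from thioglycollate-elicited peritoneal macrophages (TGEMs), primary cells of unedited mice that were cultured and then given vehicle or Kdo2-lipid A (KLA) for 1 h. For the C57Bl/6EiJ strain there was 1 library with vehicle and 1 with KLA, and for Balb/cJ there was 1 with vehicle and 2 with KLA. The labels give no age, and nothing in them says that the samples of a group came from separate cultures or animals, so p-values measure the spread between these samples, which may be technical. Of the TGEM groups only Balb/cJ with KLA had more than 1 library, so p-values of the KLA and strain comparisons also rest on additive effects.

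Toll-like receptors are membrane receptors with leucine-rich repeats outside and a signalling TIR domain inside, through which macrophages sense microbial products. TLR4 sits at the cell surface and recognises lipid A, the part of lipopolysaccharide that KLA supplies: CD14 captures it and hands it to LY96, which binds TLR4. TLR2 pairs with TLR1 or TLR6 to recognise bacterial lipoproteins, whereas TLR3, TLR7, TLR8 and TLR9 sit in endosomes and recognise nucleic acids. AP-1 factors such as ATF3, JUN and JUND, and NF-kappaB, act downstream of these receptors in macrophages.

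RefSeq promoter windows of GRCm38.p6, each running from 250 bases before a start site to 50 bases after it, were matched for 6 of the 10 genes, in 8 windows (all but Tlr4, Ly96, Cd14 and Tlr7). Those of Tlr2, Tlr1 and Tlr9 are printed 5′ to 3′ on the gene's strand, because Tlr2 changed with KLA, Tlr1 changed in 2 of the edited groups, and the Tlr9 window alone among the 8 held the AP-1 letters. Both strands were searched for TGANTCA (the AP-1 site), TGACGTCA (the cyclic AMP response element, which ATF3 dimers can bind), GAGGAAGT (a PU.1 core, the macrophage lineage factor) and the NF-kappaB consensus. Capitals mark every match, and positions count the start site as 0. The Tlr2 window is at chr3:83841559-83841858 (minus strand), the Tlr1 window at chr5:64933509-64933808 (minus strand, at a start site upstream of the deposited gene model) and the Tlr9 window at chr9:106222348-106222647 (plus strand).
Tlr2: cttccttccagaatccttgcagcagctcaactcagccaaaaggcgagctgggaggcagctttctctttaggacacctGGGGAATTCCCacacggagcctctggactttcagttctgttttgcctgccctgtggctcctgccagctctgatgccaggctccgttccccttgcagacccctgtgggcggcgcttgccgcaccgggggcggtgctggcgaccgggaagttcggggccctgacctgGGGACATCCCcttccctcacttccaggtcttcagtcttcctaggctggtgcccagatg
Tlr1: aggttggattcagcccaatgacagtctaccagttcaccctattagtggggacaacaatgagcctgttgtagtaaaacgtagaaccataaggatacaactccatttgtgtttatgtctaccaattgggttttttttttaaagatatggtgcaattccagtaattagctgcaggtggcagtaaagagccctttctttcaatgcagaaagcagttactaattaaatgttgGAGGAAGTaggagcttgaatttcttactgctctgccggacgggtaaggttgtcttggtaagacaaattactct
Tlr9: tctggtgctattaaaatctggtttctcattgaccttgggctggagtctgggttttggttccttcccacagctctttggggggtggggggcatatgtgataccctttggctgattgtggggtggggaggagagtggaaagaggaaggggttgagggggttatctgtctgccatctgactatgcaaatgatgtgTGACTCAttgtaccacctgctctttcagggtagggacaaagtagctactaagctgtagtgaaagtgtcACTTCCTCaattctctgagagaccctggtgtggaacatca

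The Tlr2 window held NF-kappaB matches from -173 to -163, where a pair of matches overlap, and from -8 to 1. NF-kappaB matches stood in 8.46% of all 32851 promoter windows, and among the other windows of these genes only in that of Tlr3. In the Tlr9 window TGACTCA stood at -58 to -52, and the AP-1 letters stood in 7.81% of all windows. The PU.1 core stood in the Tlr9 window at 10 to 17 on the opposite strand and in the printed Tlr1 window at -23 to -16, against 3.20% of all windows. The second Tlr1 window (chr5:64932650-64932949), at the start of the deposited gene model, held none of the 4 motifs. TGACGTCA, in 1.79% of all windows, was in none of the 8. These matches are descriptions of letters in a window and say nothing of binding.

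The genes lie on 8 chromosomes (GRCm38, the mm10 build), and the values are reads over all their annotated exons. Tlr4 is on chromosome 4 (66827551 to 66846581, plus strand, 3 exons), Ly96 on chromosome 1 (16688456 to 16709605, plus strand, 5 exons) and Cd14 on chromosome 18 (36725064 to 36726815, minus strand, 2 exons). Tlr2 is on chromosome 3 (83836272 to 83841608, minus strand, 3 exons), Tlr3 on chromosome 8 (45395665 to 45410539, minus strand, 7 exons) and Tlr9 on chromosome 9 (106222598 to 106226876, plus strand, 2 exons). Tlr1 (64924680 to 64932699, 3 exons) and Tlr6 (64953095 to 64960034, 2 exons) are neighbours on the minus strand of chromosome 5, 20395 bases apart. Tlr1 and Tlr6 are close paralogs, and how reads that fit both were counted is not given in the sources used here, so values of this pair carry that uncertainty. Tlr8 (167241123 to 167264329, 3 exons) and Tlr7 (167304926 to 167330571, 3 exons) are neighbours on the minus strand of the X chromosome, 40596 bases apart.

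Libraries held 1553296 to 18444389 reads, as recovered from the steps of the values, of which 74.1% to 86.4% fell in exons. The Atf3KO libraries, although deeper than Scramble, had reads in 10425 and 10631 gene models, against 11884 to 12533 in the other 6 iBMDM libraries, and replicate 2 of Atf3KO has a later label date than every other iBMDM library. All 8 macrophage markers examined were above 1 RPKM in both cell sources (summed 16835 to 33035 RPKM in iBMDMs and 8015 to 11011 in TGEMs). Mesothelial and fibroblast markers summed to at most 0.115 RPKM in iBMDMs and to 25.8 to 46.0 in TGEMs. Of 7 neutrophil markers, S100a9, Ly6g and Retnlg had no reads in any library, and the list summed to 12.5 to 51.7 RPKM in iBMDMs and 14.9 to 35.3 in TGEMs. T and NK cell, dendritic cell, eosinophil and mast cell markers each summed to at most 6.15 RPKM. All libraries are labelled male, but the 5 TGEM libraries had 19.2 to 28.1 RPKM of Xist and no reads of the Y-linked Ddx3y, whereas iBMDMs had at most 0.029 RPKM of Xist and 4.93 to 30.6 of Ddx3y. None of the targeted mRNAs passed as lower than in Scramble. In the Atf3KO pair Atf3 was at 154 and 169 RPKM, above the Scramble values of 80.7 and 77.4 (1.02 on the log2 scale, limma-trend adjusted p = 0.00237). In the JunKO pair Jun was at 26.2 and 20.5 beside 17.6 and 18.5, and in the JunDKO pair Jund was at 6.94 and 6.07 beside 9.19 and 8.33 (limma-trend adjusted p = 0.912 and 0.654). Exonic reads do not show an edit, so Atf3KO, JunKO and JunDKO stand throughout for the libraries so labelled.

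In Scramble iBMDMs Cd14 had the highest mean level of the 10 mRNAs and Tlr1 the lowest mean. Levels are RPKM, reads per kilobase of exon scaled to the depth of the library, and so can be compared between genes. Cd14, the surface protein that captures lipopolysaccharide, measured 207 ± 17.4 RPKM (SD, n = 2). Tlr2 (61.5 ± 4.94) and Tlr7 (53.3 ± 12.5) followed, and their libraries overlapped. Tlr4 (29.1 ± 5.62) and Tlr8 (22.9 ± 3.88) also overlapped. Ly96 (15.2 ± 0.144), Tlr3 (7.97 ± 0.406), Tlr6 (5.61 ± 0.0269), Tlr9 (4.66 ± 0.389) and Tlr1 (3.84 ± 0.0403) came next, each below the previous gene in both libraries. The spread of 2 libraries can be smaller than counting error: the 20 and 18 reads of Tlr1 in Scramble have exact 95% Poisson intervals of 2.33 to 5.89 and 2.29 to 6.12 RPKM. From Ly96 to Tlr1 the interval of each gene overlapped that of the next in both libraries. Counting error thus leaves the order of these neighbours unresolved. These intervals cover counting error only.

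**Figure D1:**
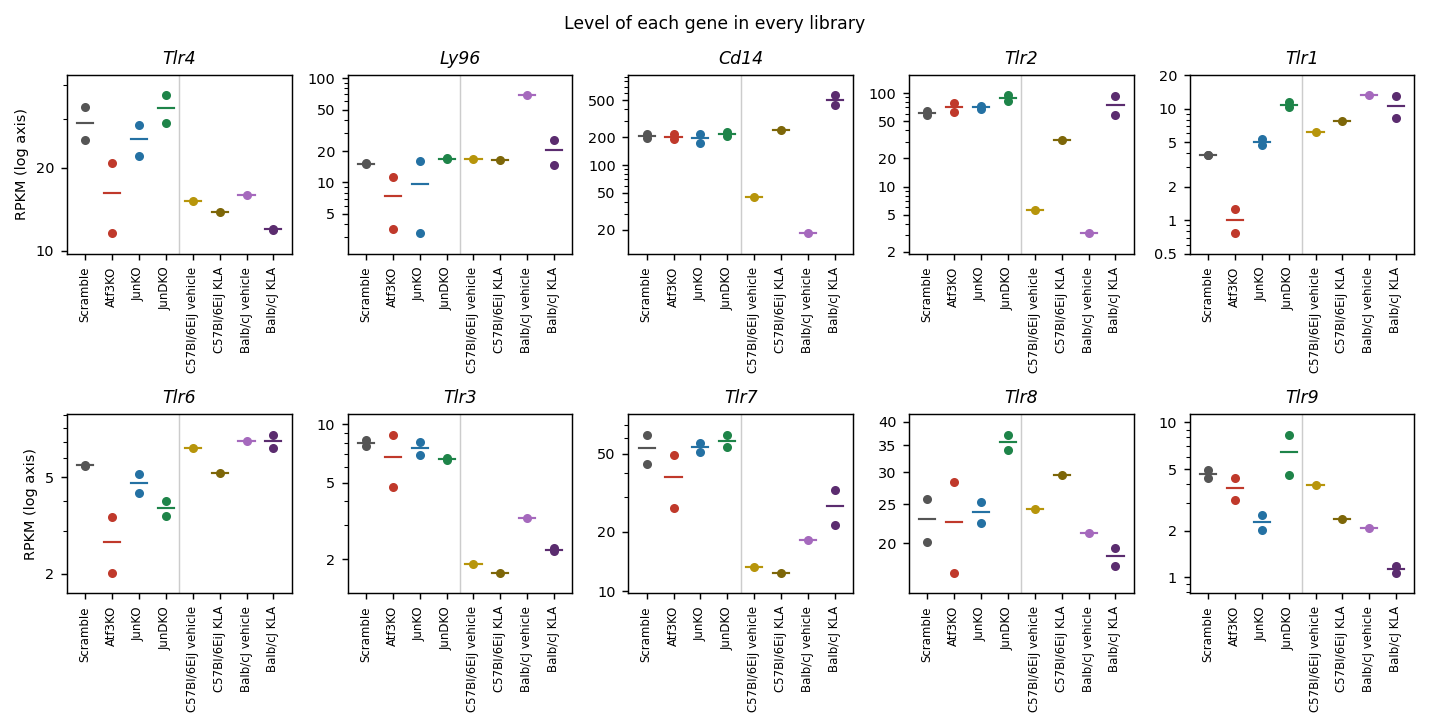
RPKM on a log axis (each panel has its own scale) of the 10 genes in all 13 libraries, with a point per library and a line at the group mean. Cd14 and Tlr2 were low in the 2 vehicle TGEM libraries alone, and Tlr1 was lowest in Atf3KO and highest among iBMDMs in JunDKO.

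The order was different in vehicle TGEMs, with 1 library of each strain. There Ly96 (16.7 RPKM in C57Bl/6EiJ and 68.5 in Balb/cJ) and Cd14 (44.8 and 18.3) held the highest means, and their libraries overlapped. Tlr8 followed (24.3 and 21.2), overlapping Cd14, then Tlr7 (13.3 and 18.3) and Tlr4 (15.1 and 16.0), which overlapped each other. Tlr1 (6.23 and 13.2) overlapped Tlr6 (6.59 and 7.07). The lowest levels were those of Tlr2 (5.66 and 3.15), Tlr9 (3.92 and 2.09) and Tlr3 (1.89 and 3.26), and each overlapped the next. In the 3 KLA libraries Cd14 had the highest mean (418 ± 167 RPKM, SD, n = 3), and Tlr2 was second (60.7 ± 30.3).

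The comparison of KLA with vehicle in TGEMs asked which mRNAs respond to engagement of TLR4 within 1 h. Among the 10 receptor mRNAs Cd14 and Tlr2 rose, by 13.1-fold and 10.3-fold on the log2(RPKM + 1) scale, and none fell. The adjusted p was under 0.05 for 1.53% of the 10357 genes tested, and 1.29% passed as higher. Both genes also met a minimum of 2-fold and 16 RPKM, which the study set for its knockout comparisons, as did 1.13% of genes tested. Cd14 measured 44.8 RPKM in C57Bl/6EiJ vehicle and 18.3 in Balb/cJ vehicle, then 238 in C57Bl/6EiJ KLA and 449.8 and 567 in the Balb/cJ KLA libraries. All 3 KLA libraries were above both vehicle libraries. The log2 fold change of Cd14, with strain as a covariate, was 3.71 ± 0.50 (SE; limma-trend adjusted p = 0.0135). Tlr2, the lipoprotein receptor, measured 5.66 and 3.15 RPKM in vehicle, then 31.8 in C57Bl/6EiJ KLA and 92.2 and 58.1 in Balb/cJ KLA. These libraries did not overlap either, and the log2 fold change was 3.36 ± 0.45 (limma-trend adjusted p = 0.0123). Of all genes tested, 23.7% had vehicle and KLA libraries that did not overlap, and 3 of the 10 genes did, the other being Tlr4. The fit left 2 residual degrees of freedom. Only the Balb/cJ KLA pair held replicates, and the remainder was departure from additive effects of KLA and strain. In simulated libraries this comparison passed more unchanged genes than its threshold allows.

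Within 1 label date Cd14 was 5.31 times its vehicle level in C57Bl/6EiJ and 24.6 times in Balb/cJ, and Tlr2 was 5.62 and 29.3 times. Both strains therefore went the same way, and the size was larger in Balb/cJ. The test of that difference, the interaction of KLA and strain, gave log2 values of 2.33 ± 0.57 for Cd14 (limma-trend adjusted p = 0.511) and 1.86 ± 0.63 for Tlr2 (limma-trend adjusted p = 0.601), and with 1 residual degree of freedom it passed for 0 of 10357 genes (835, or 8.06%, at an unadjusted p under 0.05, and 0 by limma-voom on recovered reads). Both KLA calls held without Balb/cJ KLA replicate 2 or either C57Bl/6EiJ library and were lost without either of the other libraries. Without the Balb/cJ vehicle library KLA and vehicle differed by 2.38 for Cd14 and 2.30 for Tlr2 on the log2 scale (limma-trend adjusted p = 0.229 and 0.316), and without Balb/cJ KLA replicate 1 by 3.63 and 3.07 (limma-trend adjusted p = 0.119 and 0.0716). With label date in place of strain the values were 3.46 and 3.40 (limma-trend adjusted p = 0.098 and 0.103). Neither gene passed with no filter on low values (limma-trend adjusted p = 0.134 and 0.124).

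**Figure D2:**
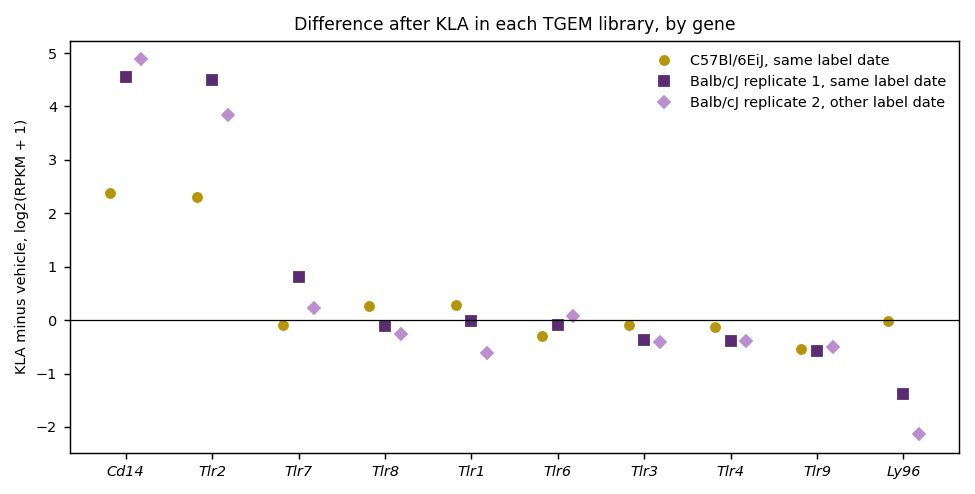
Difference between each KLA library and the vehicle library of its strain, on the log2(RPKM + 1) scale, for the 10 genes. Cd14 and Tlr2 lie between 2.30 and 4.88 in all 3 libraries, and the other 8 genes lie between -2.13 and 0.80.

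The receptor for KLA itself did not pass the test. Tlr4 measured 15.1 and 16.0 RPKM in vehicle TGEMs and 13.8, 12.0 and 11.9 after KLA, lower in every KLA library by a small margin (log2 fold change -0.28 ± 0.24, limma-trend adjusted p = 0.607). Ly96, the lipid A-binding partner of TLR4, measured 16.7 RPKM (103 reads) in C57Bl/6EiJ vehicle and 68.5 (87 reads) in Balb/cJ vehicle, against 16.4 in C57Bl/6EiJ KLA and 25.8 and 14.9 in Balb/cJ KLA. The Balb/cJ vehicle library stood above the other 4, and its interval of 54.9 to 84.5 RPKM did not reach theirs. The KLA difference of Ly96 was -1.01 ± 0.44 (limma-trend adjusted p = 0.339), with -0.02 within the C57Bl/6EiJ pair and -1.38 within the Balb/cJ pair of 1 label date.

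The remaining surface and endosomal receptors had adjusted p values of 0.402 to 0.989 (limma-trend). Tlr1 and Tlr6, the partners of TLR2, measured 6.23 to 13.2 and 5.21 to 7.49 RPKM over the 5 TGEM libraries, with log2 fold changes of -0.06 ± 0.29 and -0.13 ± 0.24. Tlr3, the receptor for double-stranded RNA, was at 1.71 to 3.26 RPKM (-0.26 ± 0.27), Tlr8 at 17.6 to 29.6 (0.01 ± 0.26) and Tlr9, the receptor for CpG DNA, at 1.07 to 3.92 (-0.54 ± 0.28). Tlr9 was lower after KLA in both strains, at 2.39 against 3.92 RPKM in C57Bl/6EiJ and 1.07 and 1.18 against 2.09 in Balb/cJ. Tlr7, the receptor for single-stranded RNA, was at 12.4 RPKM after KLA against 13.3 in C57Bl/6EiJ, and at 32.6 and 21.7 against 18.3 in Balb/cJ (0.26 ± 0.30). The median log2 fold change of the 10 genes was -0.10, beside -0.15 over all genes tested. Mesothelial and fibroblast markers summed to 42.9 to 46.0 RPKM in vehicle and 25.8 to 45.7 after KLA, and their part in these values was not tested. In bulk libraries fewer cells of a type and less RNA per cell cannot be told apart.

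Downstream of the receptors the response was large. Beside the 1.53% of all genes that passed, 1.29% as higher, all 16 of 16 early TLR4 target mRNAs listed rose (median log2 fold change 5.18), 15 of them after quantile normalization, at equal library medians or after removal of the GC trend. The list was drawn from known targets with earlier results of these data known, so the count describes the response and tests nothing. Tnf, the inflammatory cytokine, rose by 7.42 ± 0.29, Nfkbiz, a nuclear NF-kappaB cofactor, by 6.37 ± 0.26, Nfkbia, the NF-kappaB inhibitor, by 5.64 ± 0.26 and the chemokine Cxcl2 by 7.55 ± 0.37 (limma-trend adjusted p = 1.44e-04 for Tnf and Nfkbiz and 1.96e-04 for the others). None of the 18 adaptors and proximal kinases tested, of the 9 accessory and trafficking proteins or of the other Toll-like receptors passed. Of the latter Tlr13, a receptor for bacterial ribosomal RNA, was at 67.9 to 103 RPKM in TGEMs, while Tlr5 and Tlr11 were at most 0.40 RPKM and Tlr12 had no reads in any library.

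Between strains none of the 10 genes passed (2.31% of 10357 genes did). Unadjusted p was under 0.05 for 2 of the 10 and for 2213 genes (21.4%). One was Tlr7, at 18.3, 32.6 and 21.7 RPKM in Balb/cJ and 13.3 and 12.4 in C57Bl/6EiJ (0.78 ± 0.30, limma-trend adjusted p = 0.193). The other was Tlr9, at 2.09, 1.07 and 1.18 RPKM in Balb/cJ and 3.92 and 2.39 in C57Bl/6EiJ (-0.67 ± 0.28, limma-trend adjusted p = 0.220). Strain fold changes were lower in GC-rich genes (Spearman's rho = -0.45 over genes). Tlr7 has a GC content of 40.8% and Tlr9 of 56.2%. After removal of the GC trend none of the 10 genes passed, beside 1.41% of the 10329 genes then tested. The part of this trend in the 2 genes was not tested. Strain libraries did not overlap for 5 of the 10 genes (Tlr1, Tlr3, Tlr7, Tlr8 and Tlr9), as for 35.1% of genes tested. Balb/cJ reads were aligned by the authors to a genome of that strain, and the strains share no label date, so strain and label date cannot be told apart.

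The comparison of Atf3KO with Scramble iBMDMs asked which mRNAs change when ATF3, an AP-1 family member, is targeted. Of the 10 genes Tlr1 and Tlr6 fell and none rose, where 41.2% of the 10691 genes tested passed, 20.6% as lower. Neither gene met the minimum of 2-fold and 16 RPKM, which 12.5% of genes tested met. Tlr1 measured 1.26 and 0.763 RPKM in Atf3KO (15 reads in each library) and 3.82 and 3.87 in Scramble. The groups did not overlap, and the upper end of each Atf3KO interval (2.07 and 1.26 RPKM) lay below the lower ends in Scramble. The log2 fold change of Tlr1 was -1.28 ± 0.23 (limma-trend adjusted p = 0.00454). It was -0.83 after removal of the GC trend (limma-trend adjusted p = 0.0108) and -1.10 without Atf3KO replicate 2, that is, within 1 label date (limma-trend adjusted p = 0.0204). Over 15 alternatives the limma-trend or limma-voom adjusted p spanned 0.00322 to 0.0322.

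Tlr6 measured 3.42 and 2.02 RPKM in Atf3KO and 5.59 and 5.63 in Scramble, with both Atf3KO libraries below both controls. Its log2 fold change was -0.85 ± 0.26 (limma-trend adjusted p = 0.0306). The call of Tlr6 did not hold in 6 of 14 alternatives, in which the limma-trend adjusted p reached 0.122, among them removal of the GC trend (-0.47, 0.0964) and leaving out Atf3KO replicate 2 or either Scramble library. Tlr4 measured 20.9 and 11.5 RPKM in Atf3KO against 25.2 and 33.1 (-0.85 ± 0.30, limma-trend adjusted p = 0.0505) and 0.09 ± 0.15 after removal of the GC trend. Tlr4 did pass in 6 of 15 alternatives, such as with library medians made equal (-0.97, limma-trend adjusted p = 0.0356), and the adjusted p spanned 0.00557 to 0.652.

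Fold changes in Atf3KO were higher in GC-rich genes (Spearman's rho = 0.50 over genes, and genes are no independent replicates), and 7 of the 10 receptor genes lie in the lowest 25% of GC content among the genes tested. Tlr4 has the lowest GC content of them (38.4%) and Tlr9 the highest (56.2%). After the GC trend of each library was removed, 4 of the 10 genes passed, beside 41% of the 10663 genes then tested. Tlr1 and Tlr9 (-0.77 ± 0.24) were lower, and Tlr3 (0.54 ± 0.19) and Tlr8 (0.65 ± 0.15) were higher than Scramble. Before removal the values of Tlr3, Tlr8 and Tlr9 were -0.25, -0.05 and -0.26, with limma-trend adjusted p of 0.482, 0.889 and 0.516. The part of library composition in these changes was not tested.

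**Figure D3:**
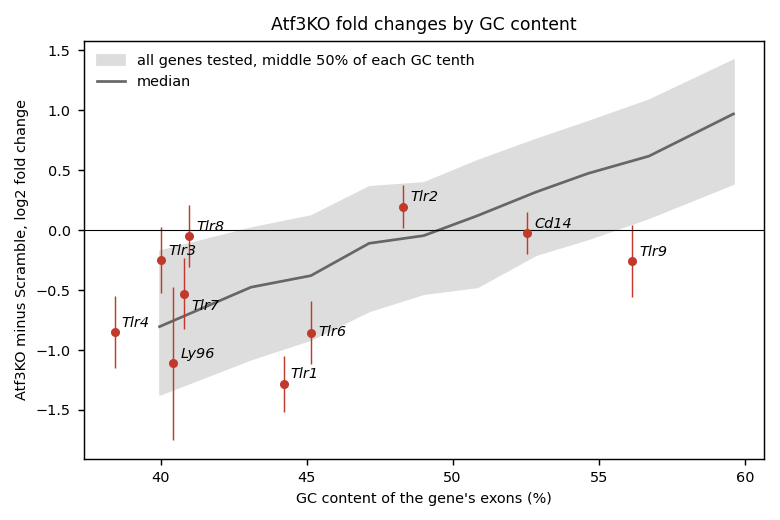
Log2 fold change in Atf3KO over Scramble (vertical, error bars SE) against exonic GC content in percent (horizontal). The grey line and band are the median and middle 50% of all genes tested in 10 equal bins of GC content, the red points are the 10 genes, and Tlr1 lies below the band at its GC content while Tlr4 lies at the lowest GC content.

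The Atf3KO and Scramble libraries overlapped for Cd14 and Tlr2. Cd14 measured 191 and 216 RPKM in Atf3KO against 219 and 195 (-0.02 ± 0.18, limma-trend adjusted p = 0.931), and Tlr2 78.7 and 63.1 against 58.0 and 65.0 (0.20 ± 0.18, limma-trend adjusted p = 0.407). Ly96 measured 11.3 RPKM (27 reads) and 3.57 (14 reads) in Atf3KO against 15.3 (16 reads) and 15.1 (14 reads) in Scramble, and these reads limit the comparison (-1.11 ± 0.64, limma-trend adjusted p = 0.190). Tlr7 measured 49.3 and 26.4 RPKM against 44.4 and 62.1 (-0.53 ± 0.30, limma-trend adjusted p = 0.181). In 8 of the 10 genes, all except Cd14 and Tlr9, replicate 2 of Atf3KO had the lower level of the 2 Atf3KO libraries. Libraries of Atf3KO and Scramble did not overlap for 4 of the 10 genes, against 70.8% of all genes tested.

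The lists of the wider pathway are read against the 41.2% of all genes that passed in Atf3KO, 20.6% as lower. Of 8 accessory and trafficking proteins 5 passed, 2 higher and 3 lower. The largest change was in Cd36, a scavenger receptor that assists TLR2, at 10.3 ± 2.84 RPKM in Atf3KO and 133 ± 32.1 in Scramble (SD, n = 2 each; log2 fold change -3.57 ± 0.24, limma-trend adjusted p = 1.10e-04). Tmed7, a trafficking protein of TLR4, fell by 1.51 on the log2 scale. Cnpy3, a chaperone of several Toll-like receptors, and Unc93b1, which carries the endosomal receptors out of the endoplasmic reticulum, rose by 1.69 and 1.50. Of 18 adaptors and proximal kinases 1 was higher and 6 were lower. Among these, Ikbkg, the regulatory subunit of the IKK complex, fell by 1.83, the TLR4 adaptor Tirap by 1.55, Irak3, a kinase-like inhibitor of the pathway, by 0.92, and Pik3ap1 by 0.97. Tlr13 fell, at 76.3 and 40.4 RPKM against 103 and 129.7 in Scramble (-1.04 ± 0.28, limma-trend adjusted p = 0.020). Early target mRNAs fell in 5 of 15 cases and rose in none, with Tnf at 6.49 and 5.79 RPKM against 23.6 and 33.7. Quantile normalization and equal library medians gave these same counts, and 8 adaptors were lower after removal of the GC trend.

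**Figure D4:**
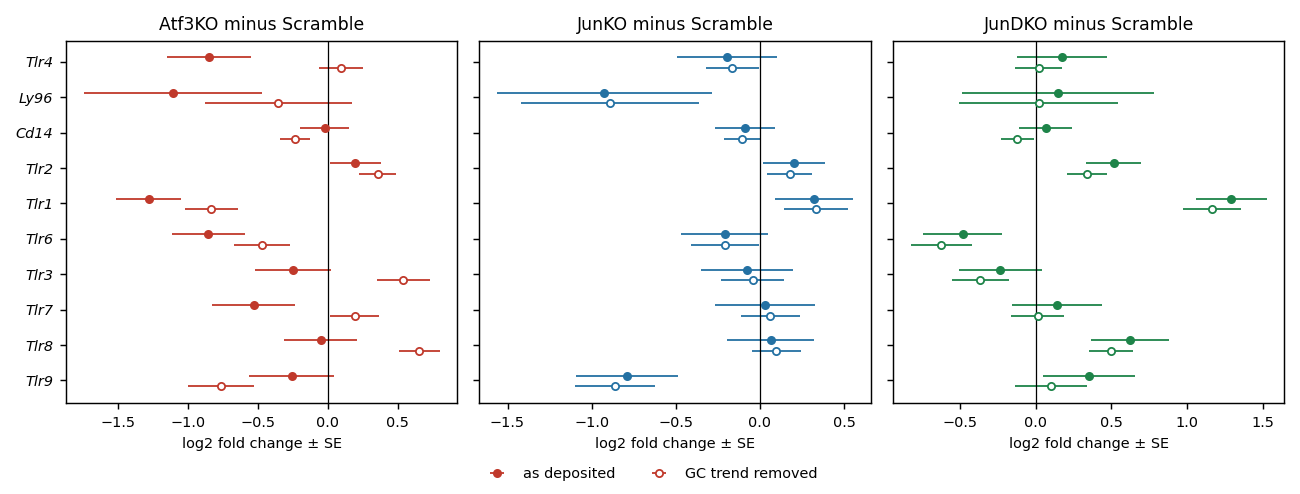
Log2 fold change over Scramble with its SE for the 10 genes in Atf3KO, JunKO and JunDKO, with filled points for values as deposited and open points after removal of the GC trend (colour marks the group). Tlr1 lies at -1.28 in Atf3KO and 1.29 in JunDKO, and open and filled points differ most in Atf3KO.

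The JunKO comparison asked the same of JUN. None of the 10 genes passed (0.281% of 10691 did), and 1 of them and 842 genes (7.88%) had an unadjusted p under 0.05. That gene was Tlr9, at 2.54 RPKM (15 reads) and 2.02 (12 reads) in JunKO and 4.93 (33 reads) and 4.38 (26 reads) in Scramble (-0.79 ± 0.30, limma-trend adjusted p = 0.543). Both JunKO libraries were below both controls. Ly96 measured 3.25 RPKM in JunKO replicate 1, from 3 reads with an exact 95% interval of 0.670 to 9.49 RPKM, and 16.1 in replicate 2 (-0.92 ± 0.64, limma-trend adjusted p = 0.823). Tlr4 was at 22.0 and 28.6 RPKM, Cd14 at 215 and 175 and Tlr2 at 73.5 and 68.2, with limma-trend adjusted p of 0.891 to 0.962. Libraries did not overlap for 4 of the 10 genes, beside 37.2% of all. No gene of the 4 pathway lists passed in JunKO.

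In JunDKO, where JUND was targeted, Tlr1 rose and was the only one of the 10 genes past the test, where 11.7% of genes tested passed, 6.93% as higher. It did not meet the minimum of 2-fold and 16 RPKM, which 4.97% of genes met. Tlr1 measured 11.4 RPKM (48 reads) and 10.4 (520 reads) in JunDKO against 3.82 and 3.87 in Scramble, so that both JunDKO libraries were well above both controls. The log2 fold change was 1.29 ± 0.23 (limma-trend adjusted p = 0.00995). With any 1 of the 4 compared libraries left out it was 1.23 to 1.35, with a limma-trend adjusted p of 0.0591 to 0.0931, which leaves it past the threshold in none of those fits. The median log2 fold change of all genes was 0.23 in JunDKO, and at equal library medians that of Tlr1 was 1.02 (limma-trend adjusted p = 0.0304).

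Tlr2 and Tlr8 were also higher in both JunDKO libraries than in both controls without passing. Tlr2 measured 82.2 and 94.6 RPKM against 58.0 and 65.0 (0.52 ± 0.18, limma-trend adjusted p = 0.111), and Tlr8 33.9 and 37.2 against 20.2 and 25.7 (0.62 ± 0.26, limma-trend adjusted p = 0.165). Both passed in the fit with a replicate block and without the Atf3KO libraries, an alternative added after the values were seen in which 24.8% of genes passed (limma-trend adjusted p = 0.0228 and 0.0168). Tlr6, next to Tlr1 on chromosome 5, was below both controls, at 3.47 and 3.99 RPKM against 5.59 and 5.63 (-0.48 ± 0.26, limma-trend adjusted p = 0.265). Libraries did not overlap for 6 of the 10 genes, as for 61.6% of all. Cd14 (228 and 205 RPKM), Ly96 (16.6 and 17.2) and Tlr4 (29.1 and 36.6) had log2 fold changes of 0.06, 0.15 and 0.17 with SE of 0.18, 0.64 and 0.30. Tlr9 measured 8.36 RPKM in replicate 1 (45 reads, interval 6.10 to 11.2) and 4.57 in replicate 2 (292 reads, interval 4.06 to 5.12), so the JunDKO replicates differed by more than counting error.

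Against the 11.7% of all genes that passed in JunDKO, 6.93% as higher, 1 of 8 accessory proteins was higher (Unc93b1, 1.21 ± 0.30) and 1 lower (Hsp90b1, the chaperone that folds Toll-like receptors, -1.28 ± 0.28). Of 18 adaptors and kinases 2 were higher and 2 lower. Irak3 measured 7.74 ± 0.755 RPKM against 44.3 ± 4.52 in Scramble (SD, n = 2 each; -2.37 ± 0.20, limma-trend adjusted p = 3.45e-04), and Ikbkg 10.5 ± 0.293 against 32.1 ± 3.88 (-1.53 ± 0.20, limma-trend adjusted p = 0.00217). The kinase Irak1 rose by 0.94 and the ubiquitin ligase Traf6 by 1.02. At equal library medians 0 adaptors or kinases were higher and 3 lower, and no accessory protein was higher. Of 15 early targets 2 were higher and 4 lower, with Tnfaip3 at -1.69, Ptgs2 at -1.85, Tnf at -0.94 and Zfp36 at 1.15. With equal library medians, 1 was higher and 5 were lower.

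Tlr1 also passed between every pair of edited groups. Atf3KO was below JunDKO (-2.57 ± 0.23, limma-trend adjusted p = 2.51e-04) and below JunKO (-1.60 ± 0.23, limma-trend adjusted p = 0.00259), where 40.7% and 35.5% of genes tested passed, 25.9% and 18.5% as lower. It passed in all 15 alternatives of each. JunDKO was above JunKO (4.75 and 5.37 RPKM) by 0.97 ± 0.23 (limma-trend adjusted p = 0.0407, where 8.14% of genes passed, 4.33% as higher), a call lost in 11 of 16 alternatives, with p up to 0.225. With a replicate block and without the Atf3KO libraries Tlr1, Tlr8 and Tlr9 passed between JunDKO and JunKO (limma-trend adjusted p = 0.0181, 0.0275 and 0.0271), where 20.6% of genes passed. Between Atf3KO and JunDKO Tlr4 passed as well (-1.02 ± 0.30, limma-trend adjusted p = 0.0266), with 0.08 after removal of the GC trend (limma-trend adjusted p = 0.716). These comparisons share libraries with each other and with those against Scramble.

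The comparison of cell sources set C57Bl/6EiJ vehicle TGEMs, as fitted over all 13 libraries, against Scramble iBMDMs of the same strain label. Tlr2, Cd14, Tlr7 and Tlr3 were lower in TGEMs and none of the 10 genes was higher, where 46.3% of 10929 genes passed, 30.2% as lower. Of the 10 genes 3 met the minimum of 2-fold and 16 RPKM, as did 21.1% of genes tested. Tlr2 was at 5.66 RPKM in the C57Bl/6EiJ vehicle library against 58.0 and 65.0 in Scramble (-3.76 ± 0.43, limma-trend adjusted p = 6.11e-05), and Cd14 at 44.8 against 219 and 195 (-2.85 ± 0.48, limma-trend adjusted p = 7.78e-04). The fit takes KLA and strain as additive over all 5 TGEM libraries, and the library values alone gave smaller differences, -3.23 for Tlr2 and -2.18 for Cd14 (4.53-fold rather than the fitted 7.19-fold). The Scramble values of Tlr2 lay within the 31.8 to 92.2 RPKM of the 3 KLA-treated TGEM libraries, and those of Cd14 lay below all 3 of theirs (238 to 567 RPKM). No test set Scramble against KLA-treated TGEMs. Tnf, 1 of the 16 early targets listed, was at 23.6 and 33.7 RPKM in Scramble, 18.1 and 20.6 in vehicle TGEMs and 2765 to 4480 after KLA. Tnf did not pass between vehicle TGEMs and Scramble, and of the 16 targets 4 passed as higher in TGEMs and 2 as lower. The state of activation of the iBMDMs was not tested.

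The endosomal receptors Tlr7 and Tlr3 were lower in TGEMs as well. Tlr7 was at 13.3 RPKM in C57Bl/6EiJ vehicle TGEMs, below the 44.4 and 62.1 of Scramble (-2.08 ± 0.35, limma-trend adjusted p = 8.61e-04). Tlr3 was at 1.89 against 7.68 and 8.25 (-1.55 ± 0.29, limma-trend adjusted p = 0.00146), a call lost without that C57Bl/6EiJ vehicle library (limma-trend adjusted p = 0.0601, estimated there from the other 4 TGEM libraries). Tlr8, the X-chromosome neighbour of Tlr7, was at 24.3 against 20.2 and 25.7 (0.22 ± 0.28, limma-trend adjusted p = 0.549). The X-linked pair therefore had unequal differences between cell sources in the same libraries. The TGEM libraries carried Xist and the iBMDM libraries carried Y-linked reads, so cell source cannot be told apart from that difference or from label date. After removal of the GC trend 7 of the 10 genes passed, beside 43.1% of the 10897 genes then tested, with Tlr1 (1.45), Tlr8 (1.08) and Tlr6 (0.77) higher in TGEMs.

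The largest difference among accessory proteins was in Ly86, the partner of the TLR4-like receptor CD180. Ly86 had no reads in Scramble and was at 53.1 RPKM in C57Bl/6EiJ and 36.2 in Balb/cJ vehicle TGEMs, at least 63.8-fold and 43.5-fold higher than the 0.832 RPKM that 3 reads over the Scramble group would give. It also had no reads in Atf3KO or JunKO, and was at 2.60 and 3.34 RPKM in JunDKO. Against the 46.3% of all genes that passed, 30.2% as lower, of 9 accessory proteins tested 3 were higher in TGEMs and 2 lower, among them Cd36 (2.51 ± 0.26), Unc93b1 (1.74 ± 0.32) and Hsp90b1 (-3.03 ± 0.32). Of 18 adaptors and kinases 3 were higher and 5 lower, with Ikbkg at -2.12, Irak3 at -2.01, Tollip at 1.48 and Ticam1 at 2.18. With library medians made equal, 6 were higher and 3 lower. Of 16 early targets 4 were higher and 2 lower.

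Over the 8 iBMDM libraries Cd14 spanned 175 to 228 RPKM, 1.30-fold, Tlr4 11.5 to 36.6 (3.17-fold) and Ly96 3.25 to 17.2 (5.30-fold, with as few as 3 reads). The genes whose log2(RPKM + 1) was most like that of Tlr4 over these libraries, among 4200 genes with a mean of at least 16 RPKM, were Thoc1, Zfp638 and Serpinb6a (Pearson's r = 0.993, 0.991 and 0.990). For Ly96 they were Sbno1, Ahcyl2 and Bcl2a1b (0.949, 0.949 and 0.938), and for Cd14 Ppp2r1a, Uqcrc1 and Wwp2 (0.968, 0.940 and 0.938). These are descriptions over 8 libraries that share groups, depth and GC trend.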

How the data were processed

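Values are RPKM as deposited for the 13 polyA libraries of 17 samples, with the GRO-seq samples left out. The authors aligned reads with STAR to mm10, or to a Balb/cJ genome made from it, and counted exonic reads per gene with HOMER (RPKM, genes condensed), with no pooling of replicates. Tool versions and the strand setting are not given in the sources used here. Reads and depth were recovered from the steps of the RPKM values: 100% of values up to 50 reads came out whole, with a tolerance of 0.05 reads or rounding.

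Genes averaging 1 RPKM or more in a fit were tested on log2(RPKM + 1) with limma-trend (limma 3.58.1, R 4.3.3), two-sided, with Benjamini-Hochberg adjustment over all genes tested, and passed at an adjusted p under 0.05. Fold changes on this scale understate those of low genes. The 4 iBMDM groups were fitted together, KLA and strain over the 5 TGEM libraries. Alternatives were other pseudocounts, filters and scalings, removal of a GC trend (a spline with 5 degrees of freedom per library), limma-voom on recovered reads, left-out libraries, a replicate block and other sets of libraries. The genes and pathway lists were chosen with earlier results of these data known. One list of cell type markers is not reported here. Named genes are the 10 receptors and co-receptors and, per list and comparison, up to 4 genes with the smallest adjusted p among those that passed. Tested on simulated libraries with 200 genes changed 4-fold, 188 passed for Atf3KO, 192 for JunDKO and 197 for KLA, beside 16, 11 and 55 unchanged genes. The interaction passed 181 of them beside 201 unchanged genes. In each of these comparisons unchanged genes were more than the nominal 0.05 of those that passed, most so for KLA and the interaction. The simulated counts had the same spread in every library and no GC trend or difference between label dates. The changed genes were not low ones. These rates therefore need not hold for the data.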

Additional observations from a re-analysis of the deposited data

How the results depend on the processing

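Of 148 recomputed counts of receptor genes that passed, 108 were within 1.5 times the main count. Of 1481 recomputed fold changes, 1403 kept their side of the threshold and any called direction, 35 lost a call, 37 gained one and 6 changed sign with a call before or after. All 6 did so after removal of the GC trend: in Atf3KO against Scramble Tlr3 was 0.54 and Tlr8 0.65, against JunKO they were 0.58 and 0.56, and against JunDKO Tlr4 was 0.076 and Tlr3 0.91. Counts after that removal were 4 (main 2) for Atf3KO against Scramble, 3 (main 1) against JunKO, 2 (main 1) for JunDKO against JunKO and 7 (main 4) for TGEMs against Scramble, beside 41%, 36.1%, 13.7% and 43.1% of all genes. In fits of only the 4 libraries compared 1 gene passed for Atf3KO against Scramble and 1 against JunDKO (31.2% and 33.7% of all genes). Against JunDKO (main 2) equal library medians gave 1 and limma-voom 5 (41% and 54.7% of all genes). For JunDKO against JunKO 0 passed with a pseudocount of 0.1, no filter, a mean of at least 5 RPKM, equal library medians, quantile normalization or limma-voom. For KLA 0 passed with no filter on low values, or with label date in place of strain. With 1 library left out, counts spanned 1 to 4 for Atf3KO against Scramble (4 without Atf3KO replicate 1, where 41.3% of all genes passed, beside 19.5% to 29.4% in the others), 1 to 4 against JunKO and against JunDKO (14.4% to 35.6% and 20.1% to 41% of all genes), 0 in every case for JunDKO against Scramble (main 1) and against JunKO (3.83% to 5.45% and 2.13% to 3.74%), and 0 to 2 for KLA (0 without the Balb/cJ vehicle library or Balb/cJ KLA replicate 1). The lone library of a group is then assumed to vary like the other groups. Leaving out a library from the interaction left no residual degree of freedom, so no test was made. The cause of these moves was not tested.

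Across genes, deviations of same-numbered libraries correlated at -0.21 to -0.12 between Atf3KO and the other iBMDM groups and at 0.18 to 0.22 among those groups. The labels tie a replicate number to no shared culture, and each group has 2 numbers, so they were not taken as pairs. With a replicate block 0 receptor genes passed for JunDKO against JunKO (683 of all genes), and 4113 rather than 4409 of all genes passed for Atf3KO against Scramble. With the numbers of Atf3KO crossed in the block, an alternative added after the values were seen, 3 receptor genes passed against Scramble, 3 against JunKO and 4 against JunDKO, beside 51.3%, 46.9% and 50.6% of all genes tested (5489, 5015 and 5413). With the block and without the Atf3KO libraries, also added then, 3 passed for JunDKO against Scramble and 3 against JunKO, beside 24.8% and 20.6% of all genes.

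Over all genes, KLA passed 158, but 57 with no filter, 84 without covariate, 71 with label date, 28 to 78 without the Balb/cJ vehicle library or Balb/cJ KLA replicate 1, 312 by limma-voom and 431 in a fit of all 13 libraries. Strain passed 239, but 44 with no filter, 146 without the GC trend, 636 by limma-voom, 793 in the fit of all libraries and 32 to 397 with 1 library left out. The interaction passed 0, but 21 with a pseudocount of 5 RPKM, 97 at a mean of at least 5 RPKM and 1 at equal medians. JunKO against Scramble passed 30, but 9 with a pseudocount of 0.1, 122 without the GC trend, 14 with the block or in the 4 libraries compared, and 141 with the block and without Atf3KO. JunDKO passed 1256 against Scramble and 870 against JunKO, but 409 to 583 and 228 to 400 with 1 library left out, and 2654 and 2204 with the block and without Atf3KO. Without the GC trend 1464 passed for JunDKO against JunKO. Atf3KO passed 4409, 3792 and 4355 genes against Scramble, JunKO and JunDKO, and as few as 2087, 1544 and 2147 with 1 library left out (2004 against JunKO in the 4 libraries compared). TGEMs against Scramble passed 5055, but 2780 without the C57Bl/6EiJ vehicle library and 2692 in the 4 libraries compared.

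Low counts limit Ly96 most, with 3 to 27 reads in 7 of the 8 iBMDM libraries, and Tlr1, Tlr6 and Tlr9 in the shallow libraries.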
